A study of Mus musculus with 8 samples.

Results

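The costimulatory and inhibitory receptors described here are Cd28, Ctla4, Icos, Pdcd1, Btla, Cd160, Lag3, Tigit, Cd226 and Cd96, 10 surface receptor genes found by their symbols among the 47937 genes of the count table, and each of the 10 had enough counts to be among the 14633 genes tested. RNA was sequenced from sorted CD8 single-positive (CD8SP) thymocytes, gated as TCRβ+ and MHC-I high, from the thymus of 4 control mice (Ndrg3 +/fl;Lck-cre+, hereafter Ndrg3 ctrl) and 4 knockout mice (Ndrg3 fl/fl;Lck-cre+, hereafter Ndrg3 TKO) aged 6 to 7 weeks, with 1 library per replicate. Both groups therefore carry the Cre transgene, driven by the proximal Lck promoter from an early thymocyte stage on, and at least 1 floxed Ndrg3 allele, and Ndrg3 ctrl mice keep an unfloxed Ndrg3 allele beside the floxed one, so that the comparison is with Cre-expressing heterozygotes and not with Cre-negative or Ndrg3 +/+ mice. The experiment asked which genes differ in expression between control and knockout cells at this last thymic stage.

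A T cell reads its antigen receptor together with a second set of surface receptors, which add to the signal or restrain it. CD28 and ICOS are costimulatory members of one immunoglobulin family and signal through phosphoinositide 3-kinase (PI3K), whereas CTLA-4, of the same family, binds the CD28 ligands CD80 and CD86 more tightly and restrains the response. PD-1 (Pdcd1), BTLA, LAG-3 and TIGIT are inhibitory receptors, CD160 shares the ligand HVEM with BTLA, and CD226 (activating), TIGIT and CD96 share the ligand CD155. On T cells that have not met antigen, CD28, BTLA, CD96 and CD226 are commonly present, while several of the inhibitory receptors are raised by activation.

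Cd28, Ctla4 and Icos lie in this order on the plus strand of chromosome 1 within 283521 bases (GRCm38), with 113640 bases between Cd28 and Ctla4 and 62094 between Ctla4 and Icos. The sequences below are shown because they carry the feature that the 3 neighbours share, the codons of the PI3K-binding motif of their cytoplasmic tails (tyrosine, any 2 residues, methionine), which a search of the last 60 codons of each principal transcript found once per gene. Each window of 30 coding bases is given 5′ to 3′ with the motif's codons in capitals.
Cd28: caaagtgacTACATGAACATGactccccgg
Icos: aatagtgaaTACATGTTCATGgcggcagtc
Ctla4: acaggggtcTATGTGAAAATGcccccaaca
The windows lie at chr1:60769684-60769713 in exon 4 of 4 of Cd28, at chr1:60995551-60995580 in exon 4 of 5 of Icos and at chr1:60914637-60914666 in exon 4 of 4 of Ctla4 (GRCm38, GENCODE M21, plus strand). The motif's 4 codons start after 188 of the 218 codons of Cd28, 180 of the 200 of Icos and 200 of the 223 of Ctla4.

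The libraries held 21126698 to 30048212 counts in Ndrg3 ctrl and 29699102 to 32668081 in Ndrg3 TKO, and at these depths the limit of 3 counts corresponds to 0.0918 to 0.142 CPM, the usual count scaled to library size. Ndrg3, the targeted gene, was checked first, and its level fell from 79.3, 81.5, 81.2 and 80.9 CPM in Ndrg3 ctrl replicates 1 to 4 to 50.4, 48.4, 53.1 and 55.3 CPM in Ndrg3 TKO, lower in every library labelled Ndrg3 TKO, with RNA counted over all exons and not over the floxed exon alone. CPM here are scaled with TMM factors, which correct for differences in library composition. Among the defining T cell markers, the summed level of the CD8 T cell list (Cd3d, Cd3e, Cd3g, Cd8a, Cd8b1, Trac, Trbc1, Trbc2, Runx3 and Cd27) was 5678 to 6405 CPM in Ndrg3 ctrl and 5890 to 6226 CPM in Ndrg3 TKO. Cd4 stayed at or below 1.48 CPM, as did the myeloid gene Csf1r and the B cell gene Ms4a1, the latter with 0 counts in every library. The B cell list summed to 8.45 to 13.3 CPM over all libraries, most of it Cd79b (means 11.8 CPM in Ndrg3 ctrl and 8.73 CPM in Ndrg3 TKO), and the myeloid or dendritic cell list to 13.2 to 21.8 CPM, most of it Cd74 (16.1 and 12.9 CPM). Y-linked genes were counted at 340 to 416 CPM in Ndrg3 ctrl replicate 2 and Ndrg3 TKO replicates 2 and 3, and at 0.0752 CPM or less in the other 5 libraries.

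In Ndrg3 TKO thymocytes, 1 of the 10 receptors passed the threshold of the main fit: Icos, 15.5% lower on average. None passed it as higher. The call of Icos was lost when any library was left out. The other 9 did not pass the threshold (adjusted p under 0.05 in edgeR's quasi-likelihood test, adjusted over all 14633 tested genes), a threshold that 1.15% of all tested genes passed, 0.355% as lower and 0.793% as higher in Ndrg3 TKO. Cd160 was 25.7% higher and Btla 14.1% higher on average in Ndrg3 TKO, with unadjusted edgeR p-values of 0.00242 and 0.0147 that did not survive the adjustment. Together with Icos they made 3 of the 10 receptors with an unadjusted p under 0.05, against 10.9% of all tested genes. The receptors with the most RNA, Cd96, Cd226 and Cd28, had fitted changes close to 0. By fitted sign 4 receptors were higher and 6 lower, and the median log2 fold change was −0.015 against −0.0033 over all tested genes. The median size of the change was 0.10 on the log2 scale, against 0.088 for all tested genes.

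**Figure D1:**
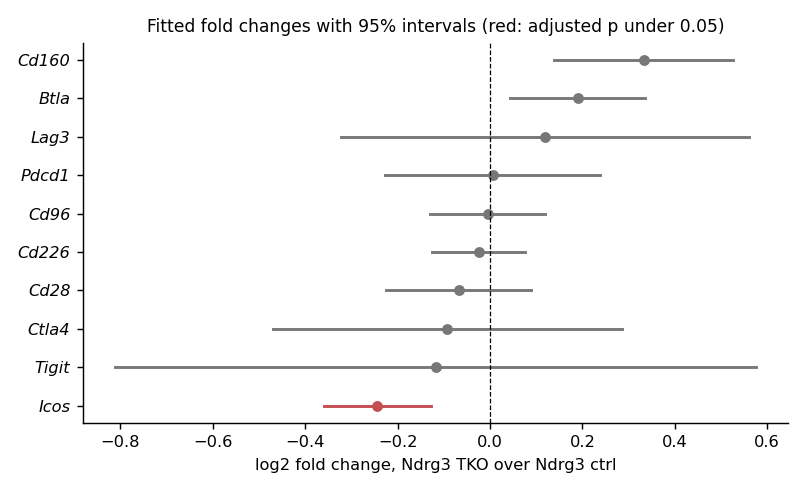
Fitted log2 fold change (x axis, Ndrg3 TKO over Ndrg3 ctrl, n = 4 per group) of the 10 receptors, with lines for 95% intervals. Icos (red) is the receptor with an adjusted p under 0.05, and its interval lies below 0. The intervals of Cd160 and Btla lie above 0, and those of Lag3, Ctla4 and Tigit are the widest.

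The levels of the 10 genes spanned a wide range. Per kilobase of annotated exon, a scale on which genes of unequal length can be set side by side, the order over the 8 libraries was Cd96 (129 ± 7.08 CPM per kb, SD, n = 8), Cd226 (40.7 ± 1.14), Cd28 (35.3 ± 3.04), Btla (27.1 ± 2.76), Icos (24.7 ± 2.52), Cd160 (12.1 ± 1.92), Pdcd1 (8.49 ± 0.984), Ctla4 (2.86 ± 0.594), Lag3 (0.777 ± 0.125) and Tigit (0.719 ± 0.214). Most neighbours in this order kept their places in 8 of 8 libraries. The exceptions were Lag3 and Tigit, in the given order in 5 of 8 libraries, and Btla and Icos, in the given order in 6 of 8. The order of Btla and Icos also differed by group. In Ndrg3 ctrl, Btla had 25.3 ± 2.28 and Icos 26.7 ± 1.74 CPM per kb (SD, n = 4), with Btla above Icos in 2 of 4 libraries, while in Ndrg3 TKO they had 28.9 ± 2.02 and 22.6 ± 0.568, with Btla above Icos in 4 of 4. The inhibitory receptors Ctla4, Lag3 and Tigit were thus the lowest of the set in both groups, and Cd28 exceeded Ctla4 per kilobase by 9.98 to 15.4 times in every library.

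**Figure D2:**
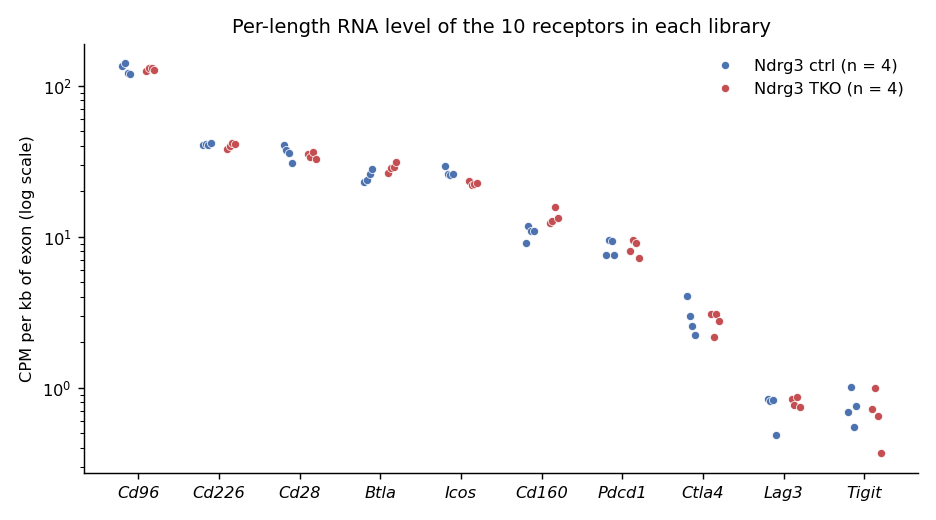
RNA level per kilobase of exon (y axis, CPM per kb, log scale) of the 10 receptors in each of 4 Ndrg3 ctrl (blue) and 4 Ndrg3 TKO (red) libraries, 1 point per library. The receptors range from Cd96 at 120 to 141 CPM per kb to Tigit at 0.367 to 1.02 CPM per kb, and for Icos the red points lie below the blue ones.

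Icos (ENSMUSG00000026009, chr1:60977927-61000320), the inducible costimulator that binds ICOS ligand, had 101, 89.0, 88.1 and 88.9 CPM in Ndrg3 ctrl replicates 1 to 4 and 80.04, 75.6, 76.4 and 77.7 CPM in Ndrg3 TKO replicates 1 to 4. Every Ndrg3 TKO library was below every Ndrg3 ctrl library, and Ndrg3 ctrl replicate 1 stood above the other 3 of its group. The means were 91.7 ± 5.96 and 77.4 ± 1.95 CPM (SD, n = 4), a log2 fold change of −0.24 (standard error 0.0538, 95% interval −0.36 to −0.13, edgeR adjusted p = 0.0452, rank 149 by p among all tested genes). The exact permutation test of the means gave p = 0.0286, the smallest that 4 libraries against 4 allow (2-sided). Icos was lower in Ndrg3 TKO among the libraries with Y-linked counts, 89.0 against a mean of 76.0 CPM (1 Ndrg3 ctrl and 2 Ndrg3 TKO), and among those without, 92.6 against 78.9 CPM (3 and 2). This direction follows for any split of groups that do not overlap, so the split adds no further support. The adjusted p lay just under the threshold, and it exceeded the threshold when any of the 8 libraries was left out (0.0512 to 0.147, log2 fold change −0.26 to −0.19), with limma voom (0.0627), with library totals as the only scaling (0.0642) and with at least 10 counts required in every library (0.05003). DESeq2 gave a log2 fold change of −0.24 with an adjusted p of 0.00775.

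In a bulk sample, fewer ICOS-expressing cells and less Icos RNA per cell cannot be told apart. The sort kept CD8SP TCRβ+ cells, a gate that selects against cells with surface CD4. Of the cell types that express Icos strongly, regulatory T cells were followed by a list of 6 markers (Foxp3, Il2ra, Ikzf2, Ikzf4, Lrrc32 and Tnfrsf9). In edgeR 0 of 6 passed and 4 had an unadjusted p under 0.05, against 10.9% of all tested genes. Of these 4, Foxp3, Il2ra and Ikzf2 were higher and Ikzf4 lower in Ndrg3 TKO. The list's summed level was 631 to 723 CPM in Ndrg3 ctrl and 673 to 826 CPM in Ndrg3 TKO. Most of it was Ikzf2 (means 537 CPM in Ndrg3 ctrl and 625 CPM in Ndrg3 TKO). Foxp3, the defining gene, had 3.45 ± 0.731 CPM in Ndrg3 ctrl and 4.97 ± 1.21 CPM in Ndrg3 TKO (SD, n = 4, adjusted p = 0.293). Of 5 CD4 lineage or helper genes, 4 were tested and 1 passed, Bcl6, at 29.4 ± 2.71 CPM in Ndrg3 ctrl and 44.7 ± 4.98 CPM in Ndrg3 TKO (edgeR adjusted p = 0.00223). Bcl6 and Cxcr5 were higher by fitted sign in Ndrg3 TKO, and Cd4 and Cd40lg lower. The list's summed level was 28.0 to 35.8 CPM in Ndrg3 ctrl and 42.2 to 54.6 CPM in Ndrg3 TKO, most of it Bcl6. Zbtb7b, a defining gene that was not tested, was under 1 CPM in every library. Its means were 0.216 CPM in Ndrg3 ctrl and 0.104 CPM in Ndrg3 TKO. Of 7 virtual memory CD8 T cell genes, 3 passed, all lower in Ndrg3 TKO (Eomes, Cxcr3 and Ccl5). By fitted sign 6 of the 7 were lower and 1 higher, with a median log2 fold change of −0.73. The summed level of that list was 598 to 719 CPM in Ndrg3 ctrl and 600 to 705 CPM in Ndrg3 TKO. Most of the sum was Il2rb (means 332 CPM in Ndrg3 ctrl and 316 CPM in Ndrg3 TKO) and Nkg7 (233 and 273 CPM). The part of these cells in the level of Icos was not tested.

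The chromosome 1 neighbours of Icos, Cd28 and Ctla4, did not pass the threshold, and whether their changes differed from that of Icos was not tested. Cd28 (ENSMUSG00000026012, chr1:60716800-60773359), the receptor for CD80 and CD86 that provides the main costimulatory signal to naïve T cells, had 247, 232, 219 and 188 CPM in Ndrg3 ctrl and 215, 205, 224 and 200 CPM in Ndrg3 TKO. All 4 Ndrg3 TKO values lay within the range of Ndrg3 ctrl, and the log2 fold change was −0.07 (95% interval −0.22 to 0.089, edgeR adjusted p = 0.791). Ctla4 (ENSMUSG00000026011, chr1:60887000-60915832), its inhibitory counterpart, had 9.42, 6.93, 5.96 and 5.19 CPM in Ndrg3 ctrl and 7.19, 5.09, 7.15 and 6.42 CPM in Ndrg3 TKO. These values overlapped, and the log2 fold change of −0.09 (95% interval −0.47 to 0.29, adjusted p = 0.891) turned to 0.11 without Ndrg3 ctrl replicate 1. That library held the highest value of all 8 for Cd28, Ctla4 and Icos, and the lowest for Btla and Cd160.

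**Figure D3:**
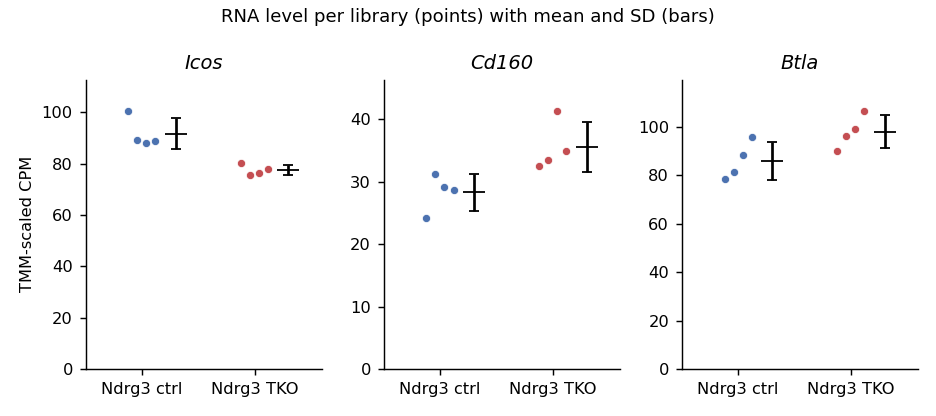
TMM-scaled CPM (y axis, from 0) of Icos, Cd160 and Btla in each Ndrg3 ctrl (blue) and Ndrg3 TKO (red) library, with the mean and SD of 4 libraries in black. The groups do not overlap for Icos (higher in Ndrg3 ctrl) and for Cd160 (higher in Ndrg3 TKO) and overlap for Btla.

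Cd160 and Btla, which share the ligand HVEM, had higher mean levels in Ndrg3 TKO, although neither passed the threshold in the main fit. For both, each Ndrg3 TKO library lay above the Ndrg3 ctrl library of the same replicate number. For Cd160 any other pairing would give the same, since its groups do not overlap. With that number as a block in edgeR both passed (adjusted p 0.00521 for Cd160 and 0.00687 for Btla), as did 5.47% of all tested genes. The labels do not say whether same-numbered libraries are pairs. Cd160 (ENSMUSG00000038304, chr3:96798763-96829351), a lipid-anchored receptor best known from cytotoxic and natural killer (NK) lymphocytes, had 24.2, 31.2, 29.1 and 28.7 CPM in Ndrg3 ctrl replicates 1 to 4 and 32.5, 33.5, 41.4 and 35.0 CPM in Ndrg3 TKO replicates 1 to 4. Every Ndrg3 TKO library lay above every Ndrg3 ctrl library, and Ndrg3 TKO replicate 3 was the highest. The means were 28.3 ± 2.94 and 35.6 ± 4.00 CPM (SD, n = 4), and the log2 fold change was 0.33 (standard error 0.0902, 95% interval 0.14 to 0.53, edgeR adjusted p = 0.121), with a 2-sided exact permutation p of 0.0286. Split by Y-linked counts, Ndrg3 ctrl and Ndrg3 TKO had 31.2 against a mean of 37.4 CPM with them (1 and 2 libraries). Without them the means were 27.3 against 33.7 CPM (3 and 2). Because the groups do not overlap, any split gives this direction, so the split adds no further support. Its adjusted p was 0.0420 with DESeq2, which called 2.11% of all tested genes, and 0.0252 with edgeR on the unfiltered table, where 1.11% of genes were called, so that the call of Cd160 depended on the settings, while its log2 fold change stayed between 0.25 and 0.38 over all settings.

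Groups that do not overlap were seen for Icos and Cd160, 2 of the 10 receptors, and for 7.04% of all tested genes, 3.59% with Ndrg3 TKO below and 3.44% with Ndrg3 TKO above. Markers of other cells known to carry Cd160 were counted beside it. The TCRβ+ gate of the sort selects against NK cells and γδ T cells, which lack surface TCRβ. NKT cells carry TCRβ, but the CD8SP gate selects against those with surface CD4 or without CD8. The purity of the sorted cells was not tested here. Of 8 NK or NKT cell markers, Ncr1 had 0 counts in every library, 6 were under 1 CPM in every library (Ncr1, Klre1, Zbtb16, Tyrobp, Gzma and Gzmb), 4 were tested, and 1 of those rose, Klrb1c, from 0.305 ± 0.232 to 1.77 ± 0.299 CPM (SD, n = 4, edgeR adjusted p = 0.00149). By fitted sign 2 of the 4 tested were higher and 2 lower in Ndrg3 TKO. Zbtb16, which was not tested, had means of 0.245 CPM in Ndrg3 ctrl and 0.0558 CPM in Ndrg3 TKO, with at most 10 counts in any library. The summed level of this list was 30.0 to 35.3 CPM in Ndrg3 ctrl and 31.9 to 50.3 CPM in Ndrg3 TKO. Most of it was Klrd1 (means 31.5 CPM in Ndrg3 ctrl and 39.0 CPM in Ndrg3 TKO). Of 6 γδ T cell genes, 3 were tested and 2 of them rose (Trgv2 and Tcrg-C1). Trdc, the defining constant gene, had 12.1 ± 1.71 and 11.9 ± 1.55 CPM (SD, n = 4, adjusted p = 0.954), and the list summed to 12.1 to 14.8 CPM in Ndrg3 ctrl and 24.7 to 30.7 CPM in Ndrg3 TKO. The part of these cells in the level of Cd160 was not tested.

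RefSeq (GRCm38.p6) places 2 transcription starts in Cd160, and the 250 bases before each are shown because Cd160 had the largest fitted change of the 10 receptors. Promoter windows were matched for 6 of the 10 receptors, and Icos was not among them. The windows are read 5′ to 3′ on the minus strand, with capitals for matches on either strand to TGTGGT, a RUNX core sequence (other strand ACCACA), or TCACACC, a T-box sequence (other strand GGTGTGA).
Cd160, chr3:96829352-96829601: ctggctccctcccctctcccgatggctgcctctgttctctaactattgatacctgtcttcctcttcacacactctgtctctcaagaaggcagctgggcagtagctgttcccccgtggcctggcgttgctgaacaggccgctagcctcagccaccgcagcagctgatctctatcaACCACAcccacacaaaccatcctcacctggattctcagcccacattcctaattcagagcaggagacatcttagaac
Cd160, chr3:96814522-96814771: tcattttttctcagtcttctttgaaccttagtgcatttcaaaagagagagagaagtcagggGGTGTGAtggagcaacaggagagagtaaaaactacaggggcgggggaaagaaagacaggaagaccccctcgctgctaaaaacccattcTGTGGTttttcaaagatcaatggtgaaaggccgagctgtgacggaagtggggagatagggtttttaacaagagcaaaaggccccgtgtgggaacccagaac
The RUNX letters occurred once in each window, and 14.0% of the 32851 windows of 250 bases in the table hold them. The windows of Btla, Cd96 and Tigit also held a RUNX match. The T-box letters occurred once in the second window and not in the first, and 3.33% of all windows hold them. Letters for NFAT (GGAAA), E-box (CANNTG) and AP-1 (TGANTCA) were searched too and are not marked. The first window held 3 E-box matches and the second 1 NFAT match, against 66.2% and 55.6% of all windows with such a match. These matches describe letters and are not evidence of binding. The exons of Cd160 share 68 bases with Pdzk1 on the opposite strand, which had at most 6 counts in any library.

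Btla (ENSMUSG00000052013, chr16:45224315-45257670), an inhibitory receptor of resting lymphocytes, had 78.6, 81.2, 88.4 and 95.8 CPM in Ndrg3 ctrl and 90.2, 96.3, 99.2 and 107 CPM in Ndrg3 TKO. The groups overlapped, since Ndrg3 ctrl replicate 4 lay above Ndrg3 TKO replicate 1, although 4 of 4 Ndrg3 TKO libraries exceeded the Ndrg3 ctrl mean. The means were 86.0 ± 7.75 and 98.1 ± 6.87 CPM (SD, n = 4), the log2 fold change was 0.19 (standard error 0.0683, 95% interval 0.043 to 0.34, edgeR adjusted p = 0.290), and the exact permutation test gave p = 0.0571 (2-sided). Tnfrsf14, which encodes HVEM, the shared ligand of both receptors, had 105 ± 7.92 CPM in Ndrg3 ctrl and 103 ± 11.2 CPM in Ndrg3 TKO (SD, n = 4, log2 fold change −0.03, adjusted p = 0.926).

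The receptors of the CD155 group did not pass the threshold. Cd96 (ENSMUSG00000022657, chr16:46035657-46120251), the most abundant receptor of the set and a binder of CD155, had 296, 307, 264 and 262 CPM in Ndrg3 ctrl and 273, 286, 286 and 279 CPM in Ndrg3 TKO. The Ndrg3 TKO values fell inside the Ndrg3 ctrl range, and the log2 fold change was −0.0052 with a 95% interval of −0.13 to 0.12, so that a difference outside 0.914-fold to 1.09-fold lies beyond this interval. Cd226 (ENSMUSG00000034028, chromosome 18), the activating receptor for CD155, had 199, 200, 200 and 204 CPM in Ndrg3 ctrl and 187, 196, 204 and 203 CPM in Ndrg3 TKO. It was the steadiest receptor in Ndrg3 ctrl, with a coefficient of variation of 0.988%, and its log2 fold change was −0.02 (95% interval −0.13 to 0.076, edgeR adjusted p = 0.891).

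Tigit (ENSMUSG00000071552, chr16:43648867-43664146), the inhibitory receptor for CD155, had 11 to 29 counts per library. Its levels were 0.637, 0.934, 0.508 and 0.695 CPM in Ndrg3 ctrl and 0.663, 0.911, 0.601 and 0.338 CPM in Ndrg3 TKO. At this depth the 95% interval of the log2 fold change ran from −0.81 to 0.58 (edgeR adjusted p = 0.928), so changes of either sign within it are compatible with these counts. Pvr, which encodes CD155 itself, had 49.7 ± 3.22 CPM in Ndrg3 ctrl and 50.6 ± 6.64 CPM in Ndrg3 TKO (SD, n = 4, log2 fold change 0.03, adjusted p = 0.943).

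Pdcd1 (ENSMUSG00000026285, chr1:94038305-94052553), which encodes the inhibitory receptor PD-1, had 14.6, 18.3, 18.0 and 14.7 CPM in Ndrg3 ctrl and 15.5, 18.5, 17.6 and 13.9 CPM in Ndrg3 TKO. The groups shared nearly the same range, with a log2 fold change of 0.0060 (95% interval −0.23 to 0.24, edgeR adjusted p = 0.991). Its ligand gene Cd274, encoding PD-L1, had 48.2 ± 3.38 and 45.7 ± 3.03 CPM (SD, n = 4, log2 fold change −0.07, adjusted p = 0.740). Lag3 (ENSMUSG00000030124, chr6:124904361-124911705), a CD4-related receptor for MHC class II, had 28 to 55 counts per library, or 1.78, 1.72, 1.76 and 1.02 CPM in Ndrg3 ctrl and 1.79, 1.63, 1.84 and 1.57 CPM in Ndrg3 TKO. Only Ndrg3 ctrl replicate 4 lay apart. The log2 fold change of Lag3 was 0.12 (95% interval −0.32 to 0.56, adjusted p = 0.882) and turned to −0.04 without that library.

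The genes around the receptors were followed in 4 lists. Of 14 ligand genes 11 were tested and 0 passed in edgeR, and DESeq2 and limma voom called 0 as well. An unadjusted edgeR p under 0.05 was seen for 2 of the 11, against 10.9% of all tested genes. These were H2-Aa and Lgals3, named after their values were seen, both at under 2 CPM. Fgl1 had 0 counts in every library, which allows at most 0.142 CPM in the shallowest library. By fitted sign 9 of the 11 were lower in Ndrg3 TKO and the median log2 fold change was −0.13, but 7 of the 14 genes stayed under 1 CPM in every library.

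Of 26 signalling partners of the receptors (kinases, phosphatases and adaptors), all were tested and 0 passed in edgeR, DESeq2 or limma voom. An unadjusted edgeR p under 0.05 was seen for 1 of the 26, against 10.9% of all tested genes. The log2 fold changes of the list ran from −0.15 to 0.11 with a median of −0.019. Among the genes of this list with the most RNA were Pik3cd, the PI3K catalytic subunit of leukocytes, at 1217 ± 35.8 and 1181 ± 45.9 CPM in Ndrg3 ctrl and Ndrg3 TKO (SD, n = 4), and Lck, which encodes the kinase that phosphorylates the T cell receptor and CD28, at 898 ± 48.5 and 885 ± 26.3 CPM. Adjusted p-values from edgeR were 0.848 for Pik3cd and 0.933 for Lck.

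Of 19 other costimulatory or inhibitory surface receptors, 18 were in the table (Pvrig was not analysed here), 16 were tested and 0 passed in edgeR, DESeq2 or limma voom. In edgeR 5 of the 16 had an unadjusted p under 0.05, against 10.9% of all tested genes. The median log2 fold change of the list was −0.07, with 5 genes higher and 11 lower by fitted sign. The most abundant were Cd6, a scavenger-type receptor of T cells, with 446 ± 28.3 and 441 ± 35.5 CPM (SD, n = 4), Vsir, encoding the inhibitory receptor VISTA, with 403 ± 35.1 and 427 ± 34.3 CPM, and the adhesion receptor gene Cd2 with 339 ± 22.7 and 307 ± 21.7 CPM. Their edgeR adjusted p-values were 0.960 for Cd6, 0.729 for Vsir and 0.433 for Cd2.

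Of 18 transcription factors known to control these receptors, 18 were tested and 1 passed. This was Eomes, a T-box factor of memory and effector CD8 T cells, which fell from 15.2 ± 2.40 to 6.36 ± 0.996 CPM (SD, n = 4, log2 fold change −1.26, edgeR adjusted p = 1.70e-04). Tcf7, which maintains naïve T cells, had 1246 ± 59.2 and 1259 ± 37.7 CPM (adjusted p = 0.955), Ikzf2 537 ± 41.1 and 625 ± 71.3 CPM (adjusted p = 0.309), and Foxo1, a factor of T cell quiescence, 539 ± 33.1 and 599 ± 24.8 CPM (adjusted p = 0.342). The list had a median log2 fold change of 0.015. Eomes included, 5 of the 18 had an unadjusted edgeR p under 0.05, against 10.9% of all tested genes.

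**Figure D4:**
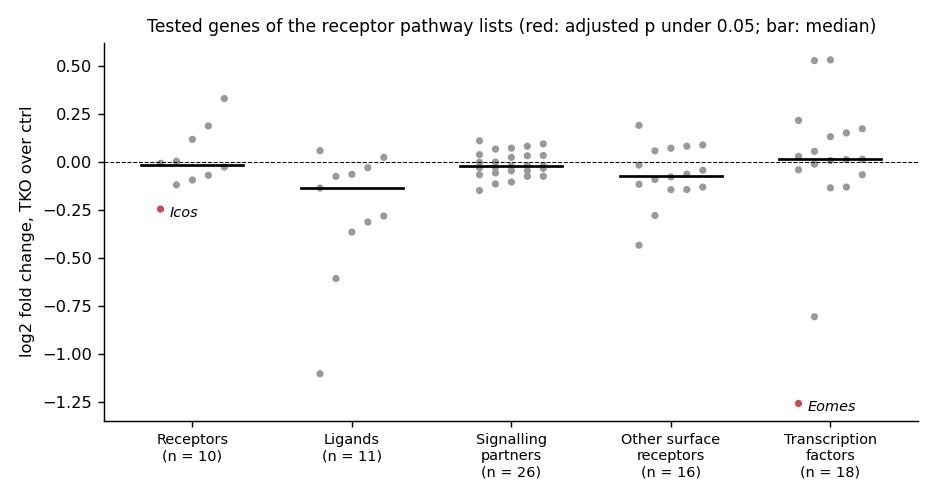
Log2 fold changes (y axis, Ndrg3 TKO over Ndrg3 ctrl) of the tested genes of the receptors and of the 4 surrounding lists (x axis, number of tested genes below each name), 1 point per gene, with red for an adjusted p under 0.05 and a bar at the median. Icos and Eomes are the red points, and the signalling partners lie within −0.15 and 0.11.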

How the data were processed

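Total RNA from sorted CD8SP TCRβ+ MHC-I high thymocytes was made into ribosomal RNA-depleted stranded libraries. The authors ran cutadapt for trimming, STAR for alignment (GRCm38.p4, release M9) and featureCounts for counting, and the deposited values are raw counts per gene; the strand setting and the handling of multi-mapping reads are not given in the sources used here. All 8 columns were mapped through the sample descriptions. Symbols, positions and union exon lengths came from GENCODE M21 (GRCm38), matching 47224 of 47937 identifiers (98.5%).

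Genes were filtered with filterByExpr, scaled by TMM and compared with edgeR 4.0.16 (glmQLFit, robust, and glmQLFTest; R 4.3.3, limma 3.58.1), with Benjamini-Hochberg adjustment over 14633 genes and calls at 0.05. The standard error was taken as the size of the log2 fold change divided by the root of F. Alternatives were DESeq2 1.42.0, limma voom, other scaling and filters, the replicate number as a block, Y-linked expression above 1 CPM as a covariate, and each library left out. The code was tested on simulated data. The 10 receptors and all lists were chosen with earlier results of these data known. The genes named from the lists were those past the threshold and the 3 with the most CPM per list, of which 1 signalling gene is not reported here; marker genes were named after their values were seen. The labels call the libraries biological replicates, and limits from counts cover counting error only. Replicates of a group differed beyond sampling noise (chi-square per gene 9.98 to 35.2).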

Additional observations from a re-analysis of the deposited data

Results flagged for a closer look

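In 52 groups of 4 libraries (library totals, Y-linked counts and the levels of the genes named above), 5 held a library whose gap to its neighbour was past Dixon's 95% limit, and chance gives about 1 in 20 groups, or 2.6. Among the receptors, Icos in Ndrg3 ctrl replicate 1 was 101 CPM against 88.1 to 89.0 CPM in the other 3 libraries. Without that library the log2 fold change of Icos was −0.19 (edgeR adjusted p = 0.114). Lag3 in Ndrg3 ctrl replicate 4 was 1.02 CPM against 1.72 to 1.78 CPM. Cd226 in Ndrg3 ctrl replicate 4 was 204 CPM against 199 to 200.03 CPM, in a group whose whole range was narrow. Outside the receptors, Cd6 in Ndrg3 ctrl replicate 2 was 488 CPM against 428 to 434 CPM, and the same library was the one of its group with Y-linked counts, at 340 CPM against at most 0.0752 CPM.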

How the results depend on the processing

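Each result was recomputed under 16 settings. The number of genes past the threshold, 168 as reported, was 309 with DESeq2, 274 without a filter on low counts, 437 with Y-linked expression as a covariate and 90 to 158 with each library left out. The number of receptors past the threshold, 1 as reported, was 2 with DESeq2 and 2 on the unfiltered table, 0 with limma voom, library totals only or at least 10 counts in every library, and 0 to 0 with each library left out. Icos kept a negative sign throughout, but passed no longer with limma voom (−0.24), library totals (−0.24), at least 10 counts (−0.24) or any library left out (−0.26 to −0.19), the last with fewer samples. Cd160 passed with DESeq2 (0.33) and without a filter on low counts (0.33), and ranged from 0.25 to 0.38 with each library left out. Values near 0 changed sign: Pdcd1 was −0.067 with the Y-linked covariate, and Cd96 0.0022 with library totals only. With each library left out, the log2 fold changes ran from −0.21 to 0.11 for Ctla4, −0.058 to 0.077 for Pdcd1, −0.042 to 0.19 for Lag3, −0.36 to 0.093 for Tigit, −0.041 to 0.036 for Cd96, −0.058 to 0.029 for Cd6, −0.051 to 0.010 for Lck, −0.057 to 0.092 for Pvr, −0.017 to 0.035 for Tcf7 and −0.10 to 0.028 for Tnfrsf14. Of the other surface receptors 2 passed with the Y-linked covariate, and of the transcription factors 2; no ligand or signalling gene passed in any of the 16. The cause of these changes was not tested.

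The groups share the replicate numbers 1 to 4, and same-numbered libraries correlated in their deviations from the group means by 0.240, 0.512, −0.0572 and 0.387. Ndrg3 ctrl replicates 1, 2 and 4 correlated best with their own number, and replicate 3 with Ndrg3 TKO replicate 4 (0.185). Replicate number 2 was the only one with Y-linked counts in both groups, and number 3 the only one with them in a single group. The part of Y-linked status in these correlations was not tested. No label says that a number marks a litter, batch or day, so the numbers were not taken as pairs in the main fit. Which of the 2 fits describes the mice better was not tested. With the replicate block 800 genes passed (5.47% of those tested), and 3 receptors: Icos (−0.24, adjusted p = 0.00154), Cd160 (0.33, 0.00521) and Btla (0.19, 0.00687), with 3 other surface receptors and 3 transcription factors. The depth leaves Lag3 and Tigit, under 100 counts in every library, with the least certain changes of the 10.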
